A study of Mus musculus with 21 samples.

Results

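Apolipoprotein E, the liver X receptors (LXRs) and the lipase maturation factors were followed through 10 genes in Chd4-null and control mouse hearts. The 10 genes were taken by name from 24509 in the expression tables. Of these, 4 (Apoe, Nr1h2, Lmf1 and Lmf2) were chosen on their own values in these hearts, because the difference between null and control was not the same at the 2 stages. The other 6 (Apoc1, Nr1h3, Abca1, Abcg1, Srebf1 and Lpl) entered by their role. For the 4 chosen genes every contrast of null and control is therefore a description with no test, and so is the difference between stages for all 10.

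Cells lose cholesterol to lipoprotein particles through the transporters ABCA1 and ABCG1, and apolipoprotein E is a main acceptor that also carries the particle to receptors. LXR alpha (Nr1h3) and LXR beta (Nr1h2) are nuclear receptors that sense oxidised sterols, pair with a retinoid X receptor and switch on Abca1, Abcg1, Srebf1, Apoe and Lpl in many tissues. Lipoprotein lipase (Lpl) frees fatty acids from circulating triglyceride, an important fuel of the heart, and it folds into an active enzyme in the endoplasmic reticulum only with lipase maturation factor.

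The RNA came from cardiac tissue of CD1 embryos. Controls carried 2 unrecombined floxed alleles, Chd4(flox/flox), here called flox, and the other group carried 2 recombined alleles, Chd4(Δflox/Δflox), here called null. The sources used here do not name the promoter that drives the recombinase. There were 5 flox and 5 null libraries at embryonic day (E) 9.5 and 3 and 3 at E10.5, and CHD4 binding was mapped in wild-type CD1 hearts at E10.0 in 3 libraries. CHD4 is the remodelling ATPase of the NuRD repressor complex. Chd4 itself was 92.5 ± 1.33 RPKM in flox and 45.7 ± 3.08 in null (SD, n = 5) at E9.5, and 77.6 ± 12.3 and 52.7 ± 4.61 (SD, n = 3) at E10.5. Libraries held 17.1 to 23.5 M reads (E9.5) or 17.3 to 18.9 M (E10.5). The 6 cardiomyocyte markers were abundant, with sums of 5697 to 15141 RPKM per library, and the 9 erythroid markers summed to 10969 to 141720 RPKM. RPKM is a read count scaled to transcript length in kilobases and to library depth. In whole hearts, fewer cells of a type and less RNA per cell cannot be told apart.

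The starts of 5 of these genes are shown to place the CHD4 peaks and motifs described for them. The windows run from -250 to 49 around a listed RefSeq start (GRCm38.p6, the assembly of mm10) on the gene's own strand, counting the start as 0. Of the 10 genes, 7 matched, with 12 windows; Apoc1, Abcg1 and Lpl did not. For Nr1h2 (chr7:44553916-44554215, minus strand) and Lmf2 (chr15:89355610-89355909, minus strand), capitals mark bases inside a CHD4 peak of all 3 libraries.
Nr1h2: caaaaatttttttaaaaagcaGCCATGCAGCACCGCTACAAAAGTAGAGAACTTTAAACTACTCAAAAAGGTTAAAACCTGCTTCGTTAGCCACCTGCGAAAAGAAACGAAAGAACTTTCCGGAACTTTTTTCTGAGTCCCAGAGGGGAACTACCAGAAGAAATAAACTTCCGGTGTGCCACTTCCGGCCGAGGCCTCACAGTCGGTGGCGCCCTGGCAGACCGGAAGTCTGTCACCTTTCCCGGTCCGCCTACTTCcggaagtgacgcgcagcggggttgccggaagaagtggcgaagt
Lmf2: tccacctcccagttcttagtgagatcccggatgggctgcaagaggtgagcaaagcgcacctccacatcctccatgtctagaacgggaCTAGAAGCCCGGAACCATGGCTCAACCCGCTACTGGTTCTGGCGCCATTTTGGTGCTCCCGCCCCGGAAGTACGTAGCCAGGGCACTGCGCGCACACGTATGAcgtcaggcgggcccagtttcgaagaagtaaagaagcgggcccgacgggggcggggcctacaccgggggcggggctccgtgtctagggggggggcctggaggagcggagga
For Lmf1 (chr17:25578924-25579223, plus strand), capitals mark bases inside a peak of 2 of the 3 libraries.
Lmf1: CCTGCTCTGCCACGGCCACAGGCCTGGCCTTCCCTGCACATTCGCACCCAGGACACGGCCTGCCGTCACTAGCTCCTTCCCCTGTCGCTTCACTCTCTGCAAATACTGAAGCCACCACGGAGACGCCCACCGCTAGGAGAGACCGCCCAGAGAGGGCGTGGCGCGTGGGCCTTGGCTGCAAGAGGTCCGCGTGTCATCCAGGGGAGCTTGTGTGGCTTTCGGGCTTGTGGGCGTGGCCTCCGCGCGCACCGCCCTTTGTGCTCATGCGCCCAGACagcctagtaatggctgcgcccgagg

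Nr1h2 had 236 of its 300 bases in peaks of all 3 libraries and Lmf2 had 103, while Lmf1 had 0 in all 3 and 275 in at least 2. These windows held 19, 23 and 23 CG dinucleotides for Nr1h2, Lmf2 and Lmf1, against a median of 7 over 32851 mouse promoter windows. The windows of Apoe, also chosen on its values, held 10, 12 and 11. Over the 12 windows of these genes the lowest count was 8, at Nr1h3, and the highest 36, at Srebf1. The letters CCGGAA, the core that ETS factors read, occurred 8 times on the 2 strands of the Nr1h2 window, where 2 palindromes count on both strands. Only 2 of all windows (0.00609%) held at least 8. Lmf2 held 2, a count reached by 3.59% of windows, and Lmf1 held none. CCGGAA was searched after the sequences had been seen, and a match is a description of letters, not a bound site.

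For Abca1 (chr4:53159846-53160145, minus strand) capitals again mark bases in peaks of all 3 libraries, 198 in number. For the most downstream start of Srebf1 (chr11:60210422-60210721, minus strand) capitals mark a direct repeat of the LXR type.
Abca1: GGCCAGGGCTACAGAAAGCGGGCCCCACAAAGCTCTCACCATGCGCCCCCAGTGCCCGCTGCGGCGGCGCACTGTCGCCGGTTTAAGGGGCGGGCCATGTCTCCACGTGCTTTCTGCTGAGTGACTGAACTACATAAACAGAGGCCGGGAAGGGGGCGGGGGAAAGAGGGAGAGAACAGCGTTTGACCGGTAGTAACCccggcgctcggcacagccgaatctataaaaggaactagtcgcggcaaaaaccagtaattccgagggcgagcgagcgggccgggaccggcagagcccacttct
Srebf1: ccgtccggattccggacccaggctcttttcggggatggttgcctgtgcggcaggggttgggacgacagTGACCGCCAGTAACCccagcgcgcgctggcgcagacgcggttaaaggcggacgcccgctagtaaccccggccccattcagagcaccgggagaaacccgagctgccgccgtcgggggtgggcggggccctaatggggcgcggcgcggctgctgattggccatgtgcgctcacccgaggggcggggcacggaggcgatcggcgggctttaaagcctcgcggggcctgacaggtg

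LXR pairs with its partner on 2 hexamers separated by 4 bases. The ideal repeat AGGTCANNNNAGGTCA, searched on both strands, was in 0 of the 12 windows and in 5 of 32851 overall (0.0152%). A looser form, GGTTANNNNNGGTCA, was written after these windows had been read, and it was in 16 of all windows (0.0487%), among them those of Abca1 and Srebf1. Abca1 held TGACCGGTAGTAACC at -67 to -53, which reads GGTTACTACCGGTCA on the other strand and formed the last 15 of the capitals above. Srebf1 held TGACCGCCAGTAACC at -182 to -168, or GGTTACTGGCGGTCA. Since the looser form was drawn from these 2 windows, its presence there is no evidence for LXR binding in the heart.

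In flox hearts at E9.5, Apoe and Lpl had the highest means of the 10 genes and Apoc1 the lowest. Mean levels per length were 89.5 RPKM for Apoe, 43.7 for Lpl, 19.2 for Nr1h2, 17.1 for Lmf2, 14.6 for Srebf1 and 13.3 for Lmf1. Below these came Nr1h3 at 2.46, Abca1 at 1.72, Abcg1 at 1.53 and Apoc1 at 1.11 RPKM. Apoe stood above Lpl in every flox library of E9.5, whereas Nr1h2, Lmf2, Srebf1 and Lmf1 each overlapped with a neighbour in the order, as did Nr1h3, Abca1, Abcg1 and Apoc1. At E10.5 Lpl lay above Apoe in flox 1. In null hearts the mean of Apoc1 was above those of Nr1h3, Abca1 and Abcg1 at both stages, and in flox hearts at E10.5 it was above those of Nr1h3 and Abcg1. LXR beta RNA exceeded LXR alpha RNA in all 16 libraries, by a per-library ratio of 4.66 to 14.5. Lmf2 exceeded Lmf1 in all 16 as well, by a ratio of 1.11 to 1.41.

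**Figure D1:**
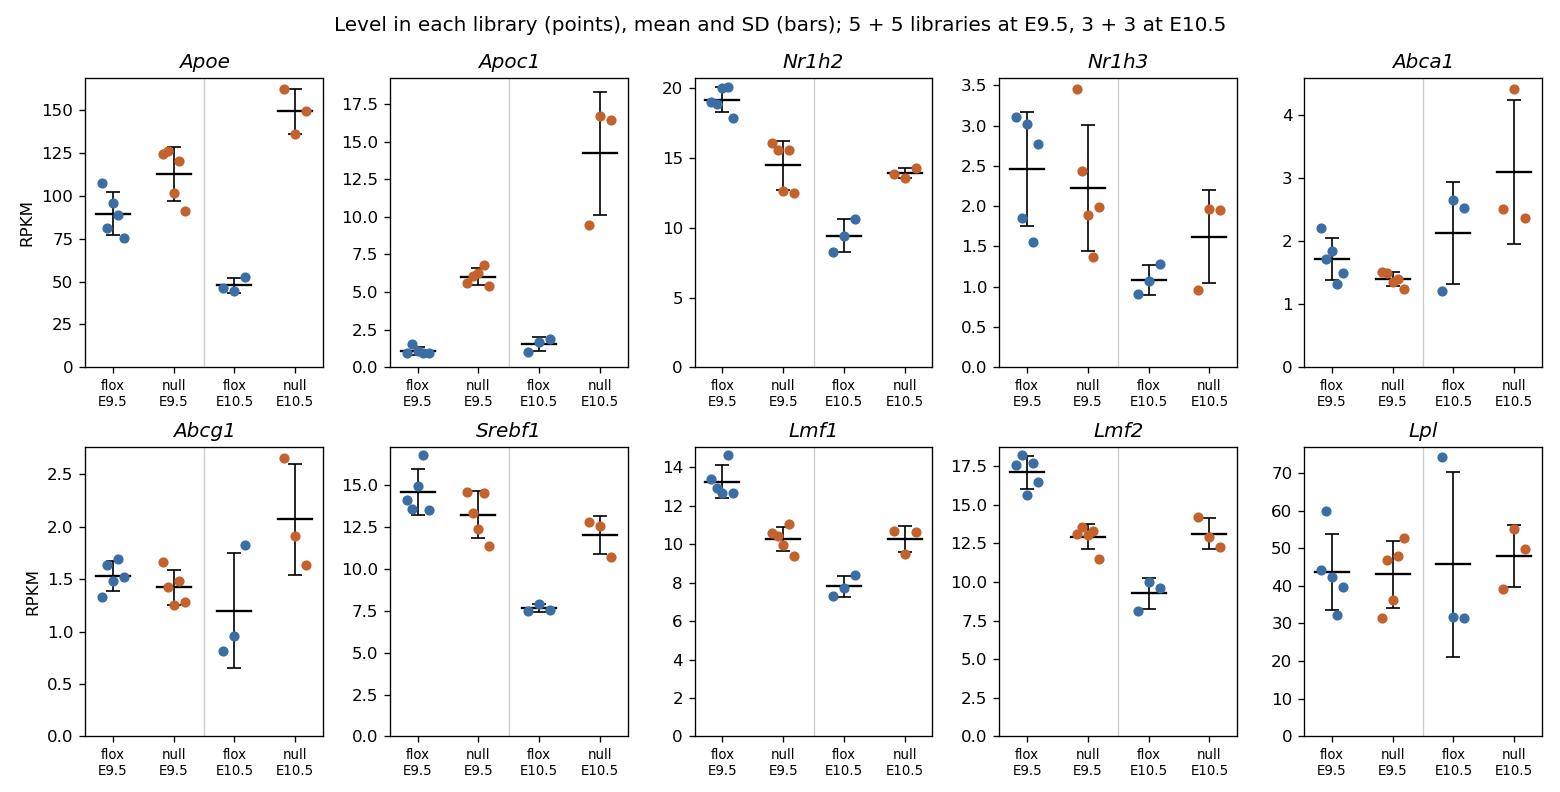
RPKM (vertical axis, linear, from 0) of the 10 genes in each RNA library (points), with the group mean and SD (black), for 5 flox and 5 null libraries at E9.5 and 3 and 3 at E10.5. Nr1h2, Lmf1 and Lmf2 have null points below all flox points on the left of the grey line and above them on the right, and Apoc1 has null points above at both stages.

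Apoe RNA was higher on average in null hearts at E9.5 and far higher at E10.5. At E9.5 flox libraries 1 to 5 held 107, 80.9, 95.5, 88.5 and 75.2 RPKM, and null libraries 1 to 5 held 124, 126, 102, 120 and 91.0. The groups overlapped, since flox 1 lay above null 3 and null 5. At E10.5 flox gave 46.4, 44.4 and 52.4 RPKM and null gave 162, 136 and 149. Every null library was then above every flox library, and the ratio of means was 3.12. On the log2(RPKM + 0.5) scale, null minus flox was 0.33 (SE 0.115) at E9.5 and 1.63 (SE 0.145) at E10.5. The chosen stage difference was 1.30.

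Apoc1, the small apolipoprotein gene next to Apoe that encodes an inhibitor of lipases and of lipid transfer, rose at both stages. Flox hearts at E9.5 gave 0.93, 1.55, 1.11, 0.98 and 0.96 RPKM (11 to 20 reads) and null hearts 5.62, 6.07, 6.24, 6.79 and 5.38 (57 to 70 reads). No null library came near the flox range, and the ratio of means was 5.45. The log2 difference was 2.03 (SE 0.111, limma adjusted p = 1.91e-06), higher in 5 of 5 null libraries. At E10.5 flox held 1.01, 1.71 and 1.88 RPKM (10 to 18 reads) and null held 9.46, 16.7 and 16.4 (94 to 174 reads). The lowest null library again lay above every flox library, with a log2 difference of 2.84 (SE 0.270, limma adjusted p = 0.00306). Apoc1 was the only 1 of the 6 genes chosen by role that was called at either stage. Over all genes tested, 17.2% were called at E9.5 (6.87% higher in null) and 2.07% at E10.5 (1.77% higher in null), so a single call among 6 is near the background at E9.5. Apoe RNA was 52.4 to 115 times that of Apoc1 in flox libraries of E9.5 and 16.3 to 22.1 times in null. At E10.5 the same ratio was 25.9 to 46.0 in flox and 8.13 to 17.1 in null.

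Nr1h2, which encodes LXR beta, was lower in null at E9.5 and higher at E10.5. In flox its E9.5 levels were 19.1, 18.9, 20.0, 20.1 and 17.9 RPKM, and in null they were 16.1, 15.6, 12.7, 15.6 and 12.5. All null values lay below all flox values, with null 3 and null 5 lowest, and the log2 difference was -0.40 (SE 0.0804). At E10.5 flox held 8.29, 9.44 and 10.6 RPKM and null held 13.9, 13.6 and 14.3. Here all null values lay above all flox values, and the log2 difference was 0.54 (SE 0.146). Null levels at E9.5 and E10.5 were close, 14.5 ± 1.74 (SD, n = 5) and 13.9 ± 0.352 (SD, n = 3), while flox went from 19.2 ± 0.921 (SD, n = 5) to 9.45 ± 1.16 (SD, n = 3).

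Lmf1 encodes the endoplasmic reticulum protein needed for active lipoprotein lipase. It held 13.4, 12.9, 12.7, 14.7 and 12.7 RPKM in flox and 10.6, 10.4, 9.95, 11.0 and 9.37 in null at E9.5. At E10.5 it held 7.33, 7.72 and 8.42 in flox and 10.7, 9.47 and 10.6 in null. The groups did not overlap at either stage, and the log2 difference went from -0.35 (SE 0.0624) to 0.37 (SE 0.142).

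Lmf2, a paralog of Lmf1, held 17.6, 18.2, 15.6, 17.7 and 16.5 RPKM in flox and 13.1, 13.6, 13.1, 13.3 and 11.5 in null at E9.5. At E10.5 flox held 8.13, 10.0 and 9.63 and null held 14.2, 12.9 and 12.3. Both stages again separated the groups completely, with a log2 difference of -0.39 (SE 0.0625) at E9.5 and 0.49 (SE 0.149) at E10.5. Nr1h2, Lmf1 and Lmf2 thus lay below every flox library at E9.5 and above every flox library at E10.5, a pattern that 56 of 13886 genes (0.403%) showed. Because they were chosen on this difference, nothing is read from that count.

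Srebf1 encodes the transcription factor SREBP1, which drives fatty acid synthesis. Its log2 differences had the same signs as those of Nr1h2, Lmf1 and Lmf2, but it was called at neither stage. At E9.5 flox held 14.1, 13.6, 14.9, 16.8 and 13.5 RPKM and null held 14.6, 13.3, 12.4, 14.5 and 11.3. These groups overlapped, with a log2 difference of -0.14 (limma adjusted p = 0.299). At E10.5 flox held 7.50, 7.92 and 7.54 and null held 12.8, 12.6 and 10.7. No library overlapped and the ratio of means was 1.57, but the log2 difference of 0.62 (SE 0.142) missed the threshold (limma adjusted p = 0.0731).

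The other LXR and the sterol transporters were low and did not pass the test at either stage. Nr1h3 ranged from 1.56 to 3.10 RPKM in flox and 1.37 to 3.46 in null at E9.5, and from 0.91 to 1.28 and 0.96 to 1.96 at E10.5 (limma adjusted p = 0.720 and 0.396). Abca1 ranged from 1.33 to 2.21 and 1.25 to 1.51 RPKM at E9.5, and from 1.21 to 2.67 and 2.37 to 4.43 at E10.5 (limma adjusted p = 0.221 and 0.394). Abcg1, the partner that passes cholesterol to mature lipoproteins, ranged from 1.33 to 1.70 and 1.25 to 1.66 RPKM, and later from 0.81 to 1.83 and 1.64 to 2.66 (limma adjusted p = 0.575 and 0.224). In each case the groups overlapped. Their log2 differences at E10.5 were 0.39 (SE 0.263) for Nr1h3, 0.46 (SE 0.310) for Abca1 and 0.62 (SE 0.276) for Abcg1, so increases of that size could not be told from 0 with 3 libraries a group.

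Lpl was abundant and varied widely within each group. At E9.5 flox held 44.3, 59.9, 42.4, 32.2 and 39.7 RPKM and null held 31.4, 46.9, 36.3, 48.0 and 52.8. At E10.5 flox held 74.1, 31.8 and 31.3 and null held 39.1, 55.1 and 49.7, so the highest value of the stage was in flox 1. The log2 differences were -0.02 (SE 0.173, limma adjusted p = 0.959) and 0.18 (SE 0.323, limma adjusted p = 0.772). The sign of either one changed when single libraries were left out.

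**Figure D2:**
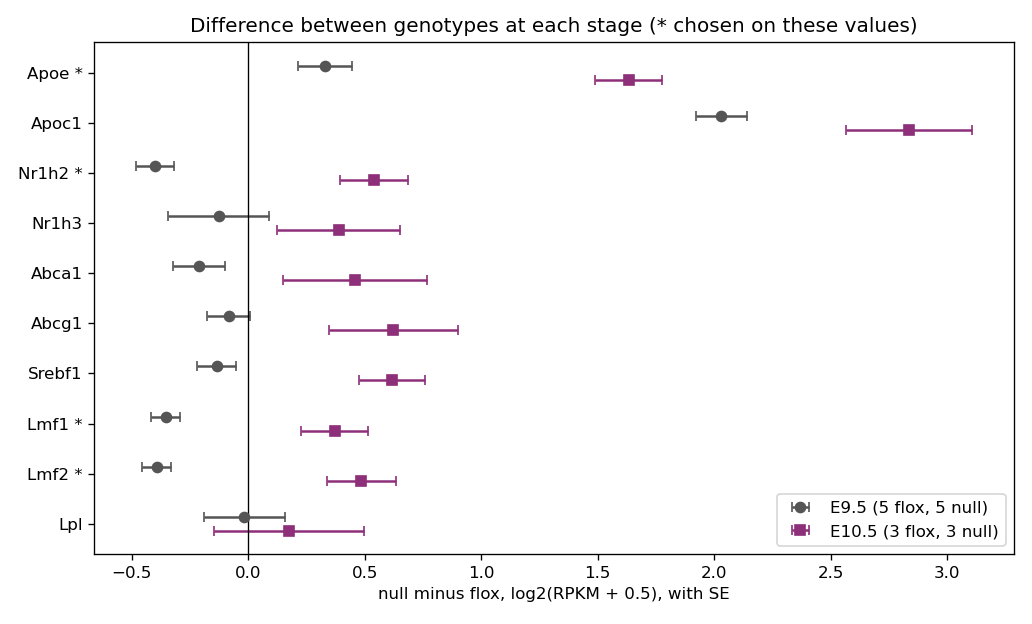
Null minus flox on the log2(RPKM + 0.5) scale (horizontal axis) with its SE for each of the 10 genes, at E9.5 (grey circles) and E10.5 (purple squares). Stars mark the 4 genes chosen on these values; the E10.5 point lies to the right of the E9.5 point for all 10 genes, by 0.19 for Lpl up to 1.30 for Apoe.

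Complete separation of the groups was counted over all genes as a background. At E9.5 null lay above flox in every library for 5.5% of tested genes and below for 8.57%. Among the 10 genes this held for Apoc1 above and for Nr1h2, Lmf1 and Lmf2 below. At E10.5 the shares were 13.9% above and 17.4% below, and Apoe, Apoc1, Nr1h2, Srebf1, Lmf1 and Lmf2 were above, 6 of 10, of which only Apoc1 and Srebf1 were chosen by role. The authors' deposited table lists Apoe, Apoc1, Nr1h2, Lmf1 and Lmf2 at E9.5 and Apoe, Apoc1, Nr1h2 and Srebf1 at E10.5. It holds 3094 genes at E9.5 and 1357 at E10.5, of 24509, all with an authors' adjusted p under 0.05. Of the genes named, only Apoc1 and Srebf1 entered by role. Srebf1 at E10.5 was thus listed by the authors though limma did not call it here. In the authors' deposited table the log2 ratio of control over null was -1.59 for Apoe, -2.41 for Apoc1 and -0.65 for Srebf1 at E10.5.

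Flox hearts had less RNA of most of these genes at E10.5 than at E9.5, and null hearts did not. Apoe, Nr1h2, Nr1h3, Srebf1, Lmf1 and Lmf2 were lower in every flox library of E10.5 than in every flox library of E9.5, a pattern of 20.7% of 13886 genes. In null hearts none of the 10 showed it, beside 995 of 13886 genes, so none among 10 is near the background. Apoe, Apoc1 and Abca1 were higher in every null library of E10.5 than in every one of E9.5, as were 1880 of 13886 genes. The median log2 difference of E10.5 minus E9.5 over the 10 genes was -0.79 in flox and 0.093 in null, beside 0.046 and 0.037 over all genes. For Apoe it was -0.89 in flox and 0.41 in null, and for Nr1h2 it was -0.99 and -0.05. Both the flox and the null part of this pattern are tied to the choice of members. The difference between stages on which 4 of them were chosen is the null change minus the flox change. The 2 stages were normalized in separate tables and made from 200 and 300 ng of RNA, and neither part was tested.

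Nr1h2, Lmf1 and Lmf2 had similar profiles over the 16 libraries, which follows in part from how they were chosen. With only the mean of each stage removed from the log2 values, Pearson's r was 0.948 between Nr1h2 and Lmf1, 0.912 between Nr1h2 and Lmf2, and 0.933 between Lmf1 and Lmf2. These values keep the genotype differences on which the genes were picked, so they are no separate result. With the mean of each genotype and stage removed, which leaves only the spread among replicates, r was 0.742, 0.494 and 0.581 for the same pairs. On the first scale, and as a description only, the genes most like Nr1h2 among 13418 were Lmf1, Grcc10 (0.937) and Zfp787 (0.935). For Lmf1 the next were Haghl (0.943) and Lmf2, and for Lmf2 they were Slc12a9 (0.949), Pick1 (0.941) and Camta2 (0.935). Lpl had an r of -0.545 to -0.033 with the other 9 genes within the groups. On the scale with only the stage mean removed, Apoe was most like Cck (0.954), a peptide hormone gene, Ckb (0.952), the brain creatine kinase gene, and Acta1 (0.947), the skeletal actin gene. Acta1 was 467 ± 106 RPKM in flox and 863 ± 83.9 in null (SD, n = 5) at E9.5, and 165 ± 62.0 and 860 ± 149 (SD, n = 3) at E10.5.

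Direct neighbours on the chromosome did not all follow these genes. Tomm40, an outer mitochondrial membrane import gene, ends 2 bp from Apoe on the same strand and fell from 70.1 ± 7.70 to 47.3 ± 9.88 RPKM (SD, n = 5) at E9.5, a log2 difference of -0.58 (limma adjusted p = 0.0143). At E10.5 Tomm40 differed by 0.11 (limma adjusted p = 0.826), while Apoe differed by 1.63. Pold1, the catalytic DNA polymerase delta subunit gene 800 bp from Nr1h2, fell by 0.37 on the log2 scale at E9.5 (limma adjusted p = 0.00691) and was higher by 0.31 at E10.5 (limma adjusted p = 0.225). Nr1h2 had the same signs. Ncaph2, a condensin gene that starts 24 bp from Lmf2 on the other strand, differed by -0.08 and 0.28 (limma adjusted p = 0.450 and 0.239). Cerox1, a noncoding RNA 4130 bp from Lmf1, differed by -0.24 and 0.60 (limma adjusted p = 0.203 and 0.227). The sources used here do not say whether reads were counted by strand, so reads in overlapping transcripts of opposite strands could be assigned to either gene. Napsa, an aspartic protease gene 18476 bp from Nr1h2, was near 0 in flox at E10.5 (0.0635 ± 0.0433 RPKM, SD, n = 3). In null it was 4.75 ± 6.96 (SD, n = 3), with every null library above every flox library, and it was not called (limma adjusted p = 0.169). Miox was under the filter at both stages, and Gm22645 was not found among the 24509 genes with expression values.

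CHD4 binding at E10.0 was not used to choose the genes. A shared peak is a peak of library 1 that overlaps one of library 2 and one of library 3, and there were 22824. The 3 libraries hold technical replicates, so they are not independent samples. Within 5 kb of a start, or of a gene end where no start was listed, 7 of the 10 genes had a shared peak: Apoe, Apoc1, Nr1h2, Abca1, Srebf1, Lmf2 and Lpl. Apoe and Apoc1 were counted through the same shared peaks, and Apoc1 and Lpl were measured from a gene end. Of all 13418 tested genes with a position 63.2% did, so the share among the 10 is near the background. Within 1 kb it was 4 of 10 (Nr1h2, Abca1, Srebf1 and Lmf2) against 56.2%.

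Where the peaks lay differed from gene to gene. At Nr1h2 a peak of each library covered the start, with a score of 93 in library 1, and a second one with a score of 317 lay 4852 bp downstream of the Nr1h2 start, over the annotated upstream end of Pold1. The score is the authors' own, its scale is not stated, and its median in library 1 was 32. At Abca1 the start peak scored 215 in library 1, and at Srebf1 peaks of all 3 libraries covered the 2 upstream starts, with scores in library 1 of 101 and 93. The Lmf2 peak, with a score of 65, lay 61 bp upstream of the Lmf2 start and at the head of Ncaph2. Apoe had no shared peak at any of its 3 listed starts. Its shared peaks were at chr7:19694045-19694653 and chr7:19695300-19696013, between its 3′ end and Apoc1, with scores of 43 and 101. The start peak of Lmf1 was found in libraries 1 and 2 and that of Nr1h3 in library 1 alone.

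**Figure D3:**
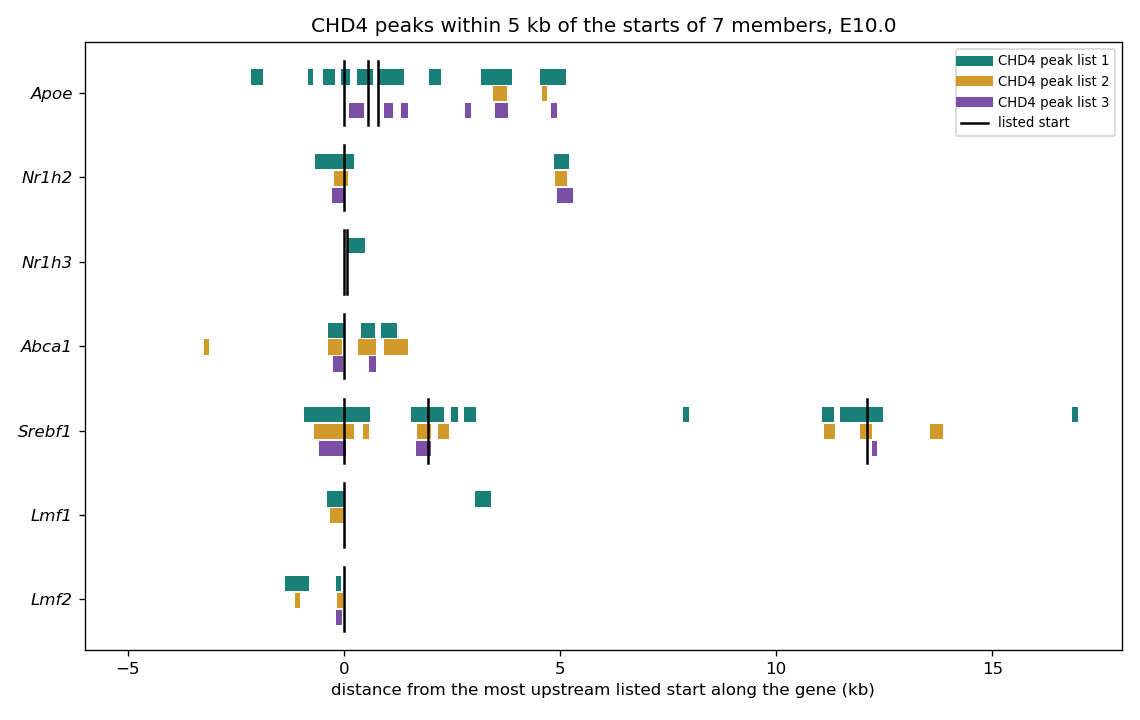
CHD4 peaks of the 3 libraries (green, yellow, purple) by distance in kb from the most upstream listed start (black lines, listed starts) along each of the 7 genes with a start in the table. Peaks of all 3 libraries coincide at the starts of Nr1h2, Abca1, Lmf2 and the first 2 of Srebf1, whereas at Apoe they coincide only beyond 3 kb, downstream of the gene.

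Around these 10 genes, 80 others were grouped in 5 lists of lipid genes drawn up with earlier results of these hearts known. At E9.5, 63 passed the filter on low values, and 15 were called, 4 higher and 11 lower in null. That is 23.8% beside 17.2% of all genes tested, and it became 6 genes without flox 5 or without null 5 and 8 without flox 3. No apolipoprotein of 8 tested was called, with a list median of 0.02 on the log2 scale beside -0.04 for all genes. Of 10 lipoprotein receptors 2 rose, where 6.87% of all tested genes rose. Sorl1, a sorting receptor, rose from 6.13 ± 0.564 to 8.27 ± 0.478 RPKM (SD, n = 5, limma adjusted p = 0.00443). Lrp8, a receptor for apolipoprotein E, rose from 2.08 ± 0.519 to 3.55 ± 1.17 RPKM (SD, n = 5, limma adjusted p = 0.0490).

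Among 16 partners and targets of LXR, 1 rose and 4 fell, where 6.87% of all tested genes rose and 10.3% fell. Mylip, which marks the LDL receptor for breakdown, rose by 0.41 on the log2 scale. Among those that fell, Rxrb, a retinoid X receptor gene, fell by 0.27 (limma adjusted p = 0.00530), Rxrg fell by 0.56, and Ncoa2, a coactivator gene, fell by 0.21. Of 22 genes of sterol synthesis and its control 6 fell and none rose, where 10.3% of all tested genes fell. Mvk (mevalonate kinase) fell from 16.2 ± 0.735 to 10.1 ± 0.918 RPKM (SD, n = 5; limma adjusted p = 0.000166), and Pmvk, Dhcr7 and Mvd fell by 0.40, 0.37 and 0.40. The list median was -0.02, and 16 of the 22 genes were not called. Of 7 lipases and cofactors, Angptl4, a secreted inhibitor of lipoprotein lipase, rose by 0.81 (limma adjusted p = 0.00279). Pnpla2, the lipase that opens stored triglyceride, fell by 0.64 (limma adjusted p = 0.00433).

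At E10.5 none of 67 tested list genes was called by limma. At an unadjusted limma p under 0.05 there were 13, 10 higher and 3 lower in null. Of all 14100 tested genes 3226 had such a p, so 13 of 67 is near the background. Limma voom on the recovered reads also called none of the list genes. The list medians were 1.27 for 10 apolipoproteins, 0.38 for 11 receptors, 0.34 for 8 lipases and cofactors, -0.07 for LXR partners and targets and -0.06 for sterol synthesis, beside -0.03 over all genes. Apoa1, one of the liver markers and named after its values were seen, held 0.73, 10.2 and 0.18 RPKM in flox and 1.24, 61.9 and 78.6 in null (log2 difference 3.31, limma adjusted p = 0.231). The difference between stages was called for 2 of 67 list genes, beside 3.82% of all genes.

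**Figure D4:**
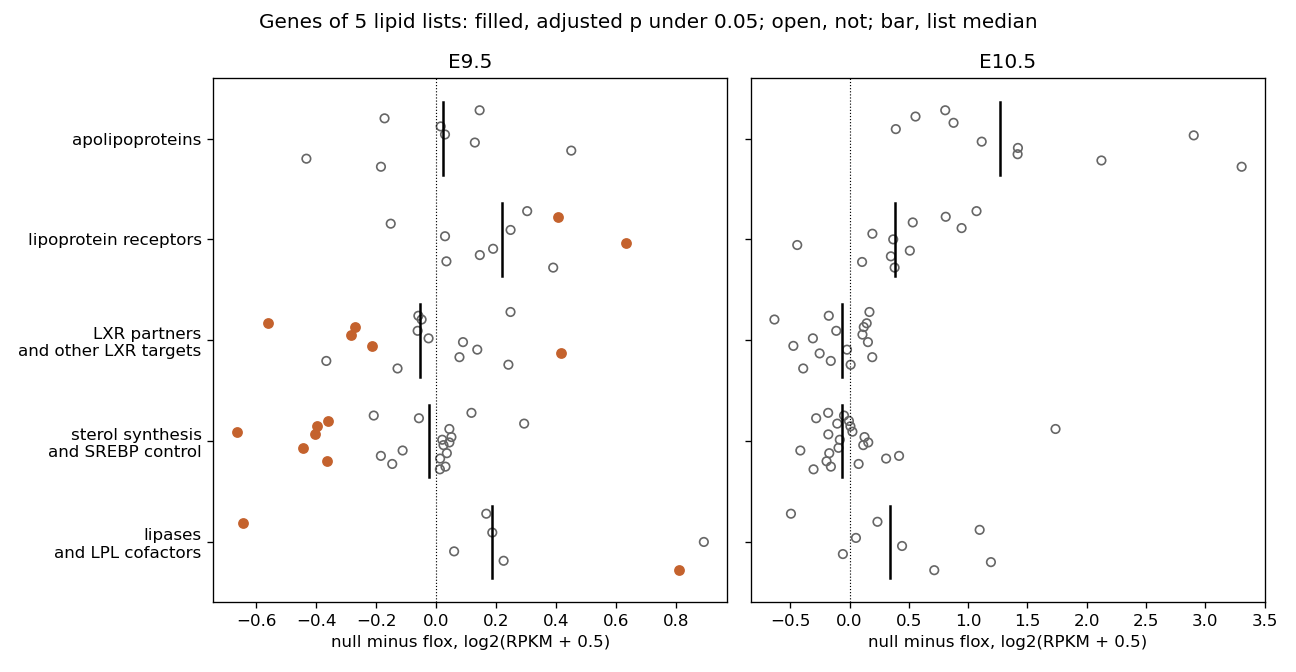
Null minus flox on the log2(RPKM + 0.5) scale (horizontal axis) for each tested gene of the 5 lipid lists (rows) at E9.5 and E10.5, with filled points at an adjusted p under 0.05, open points above it and a bar at the list median. At E9.5 the filled points of sterol synthesis all lie left of 0, and at E10.5 no point is filled; the 2 panels have different horizontal scales.

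Markers of other cells moved with the groups in part. The 9 liver and visceral endoderm markers summed to 9.78, 214 and 8.01 RPKM in the E10.5 flox libraries and 31.1, 1590 and 1134 in the null libraries, and to 5.29 to 43.1 at E9.5. Beside those sums, in the same order, Apoe was 46.4, 44.4 and 52.4 RPKM in flox and 162, 136 and 149 in null. Apoc1 was 1.01, 1.71 and 1.88 RPKM in flox and 9.46, 16.7 and 16.4 in null, lowest in the null library with the lowest liver sum. Apoe was highest of the null values in that same library. In flox both genes were highest in the library with the lowest liver sum. The 13 macrophage markers, cells rich in Apoe and Abca1, summed to 12.8 to 25.2 RPKM in flox and 23.2 to 40.2 in null at E10.5, and to 4.36 to 9.58 over both groups at E9.5. None of the 8 macrophage markers tested at E10.5 passed the test, and 1 of 3 tested at E9.5 fell (Lyz2). All 9 erythroid markers rose at E9.5, and none of 9 was called at E10.5. Of 6 cardiomyocyte markers 2 fell at E9.5 (Actc1 and Myh6), where the sums were 12742 to 15141 RPKM in flox and 10316 to 12954 in null. Of 8 epicardial markers 1 rose at E10.5 (Krt19), where the sums were 218 to 257 RPKM in flox and 311 to 353 in null. Krt19 alone held 27.3, 16.9 and 26.7 RPKM in flox and 176, 85.9 and 101 in null. Without it the epicardial sums of the 2 groups overlapped, and no other marker of that list was called. These 4 marker genes were named after their values were seen. The part of liver, macrophage, erythroid, cardiomyocyte and epicardial cells in the differences of the 10 genes was not tested.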

How the data were processed

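The members and the gene lists were chosen with earlier results of these data known. The submitters' processing notes name MACS2, DESeq2 1.6.3, Bowtie 1.2.0, HTSeq 0.6.2, bedtools 2.25.0 and SAMtools 1.6, without their roles, and mm10. The RPKM values and gene lengths are used as deposited by the authors; multiplied by length and depth they gave whole reads within 0.01 for 100% of values. The authors' log2 ratios of control over null and their p-values were deposited only for genes they listed, and the peak score was deposited per library by the authors.

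Column headers marked WT and KO were taken as flox and null. Within each stage, limma 3.58.1 in R 4.3.3 (lmFit, then eBayes with a trend) compared null with flox two-sided on the scale log2(RPKM + 0.5), where low genes appear to change less than they do. Genes averaging under 0.5 RPKM were left out. Calls were made at 0.05 after Benjamini-Hochberg adjustment over all tested genes. The stage difference was an interaction over 16 libraries. The fits were also run on simulated counts with a fixed spread among replicates and no differences between whole libraries. That run therefore does not measure the error of the fits in these data. The labels call the libraries biological replicates. Same-numbered libraries did not deviate together throughout (correlations from -0.142 to 0.508 in the E9.5 pairs and from -0.016 to 0.1 in those of E10.5), so no pairing was used. Starts and sequences are from RefSeq, GRCm38.p6, with 13418 of 13886 genes (96.6%) positioned. Peaks were joined with bedtools 2.31.1 and figures drawn with matplotlib 3.10.9. Genes named were the 10 members, Chd4, up to 4 called genes per list and stage, the nearest gene on each side of the 4 chosen genes, and the 3 genes most correlated with each of them. The pseudocount, the filter, the scaling, the model, a block by replicate number, the peak window and overlap, and single libraries were varied. The 2 input libraries were not analysed here.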

Additional observations from a re-analysis of the deposited data

Results flagged for a closer look

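Nr1h2, Lmf1 and Lmf2 were marked because every null library lay below every flox library at E9.5 and above every one at E10.5. Their stage differences of the log2 difference were 0.94, 0.72 and 0.88, and they were not tested, since these genes were chosen on them.

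Lmf2 in null library 5 of E9.5 stood apart at 11.5 RPKM, below the other null libraries at 13.1 to 13.6. Of 20 groups of 5 values checked for the 10 genes this was the only one, and chance marks about 1 in 20.

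Scarb1, the HDL receptor gene, and Pnpla2 differed in the effect of the null genotype between stages by the interaction term of limma. For Scarb1 the difference was 0.68 (SE 0.172, limma adjusted p = 0.0406). Flox held 29.9 ± 2.68 RPKM and null 27.0 ± 3.99 (SD, n = 5) at E9.5, and 19.1 ± 1.45 and 28.1 ± 4.79 (SD, n = 3) at E10.5. For Pnpla2 it was 0.88 (SE 0.215, limma adjusted p = 0.0375), with 8.75 ± 0.831 and 5.47 ± 0.997 RPKM (SD, n = 5) at E9.5 and 4.97 ± 0.932 and 5.95 ± 1.11 (SD, n = 3) at E10.5. Scarb1 was named after its value was seen. Both calls were lost with no filter on low values (adjusted p = 0.0530 for Scarb1 and 0.0528 for Pnpla2 by limma) and when any flox library, null 3 or null 5 of E9.5, or flox 1, flox 2 or null 1 of E10.5 was left out. The call of Scarb1 was also lost without null 1 or null 2 of E9.5, and that of Pnpla2 without null 3 of E10.5.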

How the results depend on the processing

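The log2 differences of all members but Lpl kept their sign at each stage under every other setting run (19 at E9.5, 14 at E10.5, 24 for the stage difference). Apoc1 stayed called throughout, with a limma adjusted p of at most 0.000233 (E9.5) and 0.0257 (E10.5), and Srebf1 at E10.5 was never called (0.0565 to 0.282). Lpl changed sign at E9.5 with median scaling (0.03), quantile normalization (0.01), without flox 1, flox 3 and null 1 together (0.10; chosen after seeing the data for their low epicardial sums) and in the range over single libraries left out (-0.12 to 0.10); at E10.5 that range was -0.03 to 0.58 and for the stage difference -0.02 to 0.60. Genes called numbered 2342 at E9.5 (937 higher, 1405 lower), 292 at E10.5 and 531 for the stage difference (349 higher, 182 lower). With median scaling the splits became 1134 and 1027 at E9.5 and 394 and 385 for the stage difference. Leaving out single libraries gave 1537 to 2773, 62 to 356 and 4 to 1795 genes, the last lowest without flox 1 of E10.5. At E9.5 null 5 moved the count by over 1.5 times, at E10.5 each flox library and null 2 did, and for the stage difference all but flox 5, null 1 and null 2 of E9.5 did, with null 4 of E9.5, flox 3, null 1 and null 2 of E10.5 raising it. The 3 libraries left out together gave 1349, no filter gave 162 at E10.5 and quantile normalization 860 for the stage difference. With a replicate block the counts were 3698, 269 and 1377; 3 of 5 libraries at E9.5 and 2 of 3 at E10.5 correlated best with their own number. List genes called were 15 at E9.5, 6 to 16 with single libraries left out and 8 without the 3 libraries; at E10.5 they were 0, 1 with a mean of at least 1 RPKM, 1 with a replicate block and 0 to 7 with single libraries left out, 7 without null 1. Genes with a near CHD4 peak were 7, 4 within 1 kb and 3 with an overlap of at least 50%. The cause of these changes was not tested. Apoc1 in flox rested on 10 to 20 reads, and 3 libraries a group limit E10.5.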
